A study of Mus musculus with 8 samples.

Results

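CXC chemokines are small secreted proteins that guide leukocytes and other cells through G protein-coupled receptors. The ligands with an ELR motif before the paired cysteines, among them Cxcl1, Cxcl2 and Cxcl5, attract neutrophils through Cxcr2, which the array annotates under its older symbol Il8rb. Cxcl12 signals through Cxcr4 in vessel walls, neurons and immature cells, Cxcl13 and Cxcl14 have largely homeostatic roles, and Cxcl16 is membrane-bound. After an infarct the ELR ligands are classic early products of injured tissue, and neutrophils carrying Cxcr2 enter the injured brain.

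The 9 genes Cxcl1, Cxcl2, Cxcl5, Cxcl12, Cxcl13, Cxcl14, Cxcl16, Cxcr4 and Il8rb were taken by array symbol (9 of 27962 gene names on the array). They were represented by 13 of 41174 probes, each printed once. Cxcl12, Cxcl16, Cxcr4 and Il8rb had 2 probes each, and the other genes had 1. RNA came from the right, ischemic hemisphere of male C57BL/6J mice aged 8 to 12 weeks, according to the labels. The 4 settings were sham surgery or permanent middle cerebral artery occlusion (PMCAO), each taken 6 h or 24 h after surgery, and every mouse received an intracerebroventricular injection of 1 µl directly afterwards. That injection held either 1 pmol of PACAP38, the 38-residue form of pituitary adenylate cyclase-activating polypeptide, or saline alone, so that the sham mice also carried the wound of the needle. The paper describes the left hemisphere as the injected one and the right as not injected.

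Each of the 8 RNA pools held 3 mice and was hybridised on 2 arrays with the dyes exchanged, which makes the 2 arrays technical readings of 1 pool. No p-value is given for a single comparison for that reason, and PMCAO mice were chosen for the arrays by their neurological grade while sham mice were drawn at random. All 6 h arrays lay on one slide and all 24 h arrays on another, so time and slide cannot be told apart. Between 62.1% and 76.0% of spots were well above background in a channel. Outlier flags covered from 0.323% to 10.7% of spots per array, and the highest share was on a sham 6 h array.

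Signals below are scaled signals, that is, processed signals divided by their channel's 75th percentile and multiplied back by the geometric mean of those percentiles, 987. A ratio counted as higher above 1.5-fold and as lower below 0.75-fold, as mean of the 2 arrays, which are the study's own thresholds. The 2 readings of PACAP38 over saline, turned the same way, correlated poorly across all probes. Pearson's r was -0.15 at sham 6 h, -0.14 at PMCAO 6 h, -0.42 at sham 24 h and 0.05 at PMCAO 24 h. The labels state the dye of each RNA, so the direction was kept, and both arrays are given for each ratio that the text turns on.

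The ELR ligands Cxcl1, Cxcl2 and the neighbouring Cxcl3, which the array lists as Gm1960, lie on mouse chromosome 5 (Cxcl1 at chr5:90891245-90893121, Cxcl2 at chr5:90903899-90905938, GRCm38.p6), and their upstream sequences are shown because their 24 h signals moved in the same direction. The 90 bases from 110 to 21 before the start site are written 5′ to 3′, with capitals marking, on either strand, GGG and TTTCC set 2 bases apart, a letter pattern of the kind bound by NF-κB. The sequences are from RefSeq on build GRCm38.p6, plus strand.
Cxcl1, chr5:90891135-90891224: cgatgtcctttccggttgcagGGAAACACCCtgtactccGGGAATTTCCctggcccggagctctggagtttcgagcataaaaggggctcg
Cxcl2, chr5:90903789-90903878: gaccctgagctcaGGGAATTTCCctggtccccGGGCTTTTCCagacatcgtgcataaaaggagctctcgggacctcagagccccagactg
Cxcl3, chr5:90785991-90786080: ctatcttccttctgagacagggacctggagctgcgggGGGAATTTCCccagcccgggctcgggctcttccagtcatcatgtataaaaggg

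Within the 250 bases before to 50 after the start, the letters occurred in 2 of the 7 members with a promoter entry, Cxcl1 and Cxcl2, and in 1.63% of 32851 promoters. Cxcl1 held 2 matches, starting 89 bases before the start on the minus strand and 71 bases before on the plus strand. Cxcl2 held 2 matches on the plus strand, 97 and 78 bases before the start, and Cxcl3 held 1 match 73 bases before it. The promoters of Cxcl12, Cxcl13, Cxcl14, Cxcr4 and Cxcr2 held none, and Cxcl5 and Cxcl16 had no entry. These are descriptions of letters, and no binding was measured here.

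Among the 4 comparisons of PACAP38 with saline, the most member probes differed in the ischemic hemisphere at 24 h, where 9 of 13 were lower after PACAP38 than after saline and 0 were higher. Over all probes 8.18% were lower and 2.99% higher in that comparison. All 9 were lower on both arrays, where 3.75% of all probes were, and 8 of the 9 had at least 1 pool well above background. With another background correction (normexp and loess), which compresses dim probes, 5 of the 9 stayed lower, with log2 ratios of -2.47 for Cxcl1, -1.22 for Cxcl2, -0.82 for Il8rb A_52_P559975 and -0.65 and -0.63 for the Cxcl16 probes. The median log2 ratio was -0.90 over the members and 0 over all probes. At 6 h after PMCAO the median was 0.51, with 2 of 13 probes higher, where 5.36% of all probes were, and 0 lower, where 6.79% were. The 2 were Cxcl5 and Il8rb A_51_P148602, and the latter was not well above background in either pool. From the array with PACAP38 in Cy5 alone 8 probes were higher at 6 h, and from its dye swap alone 1 was. The share of all probes on each single array was not counted, so these counts have no background to be read against.

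**Figure D1:**
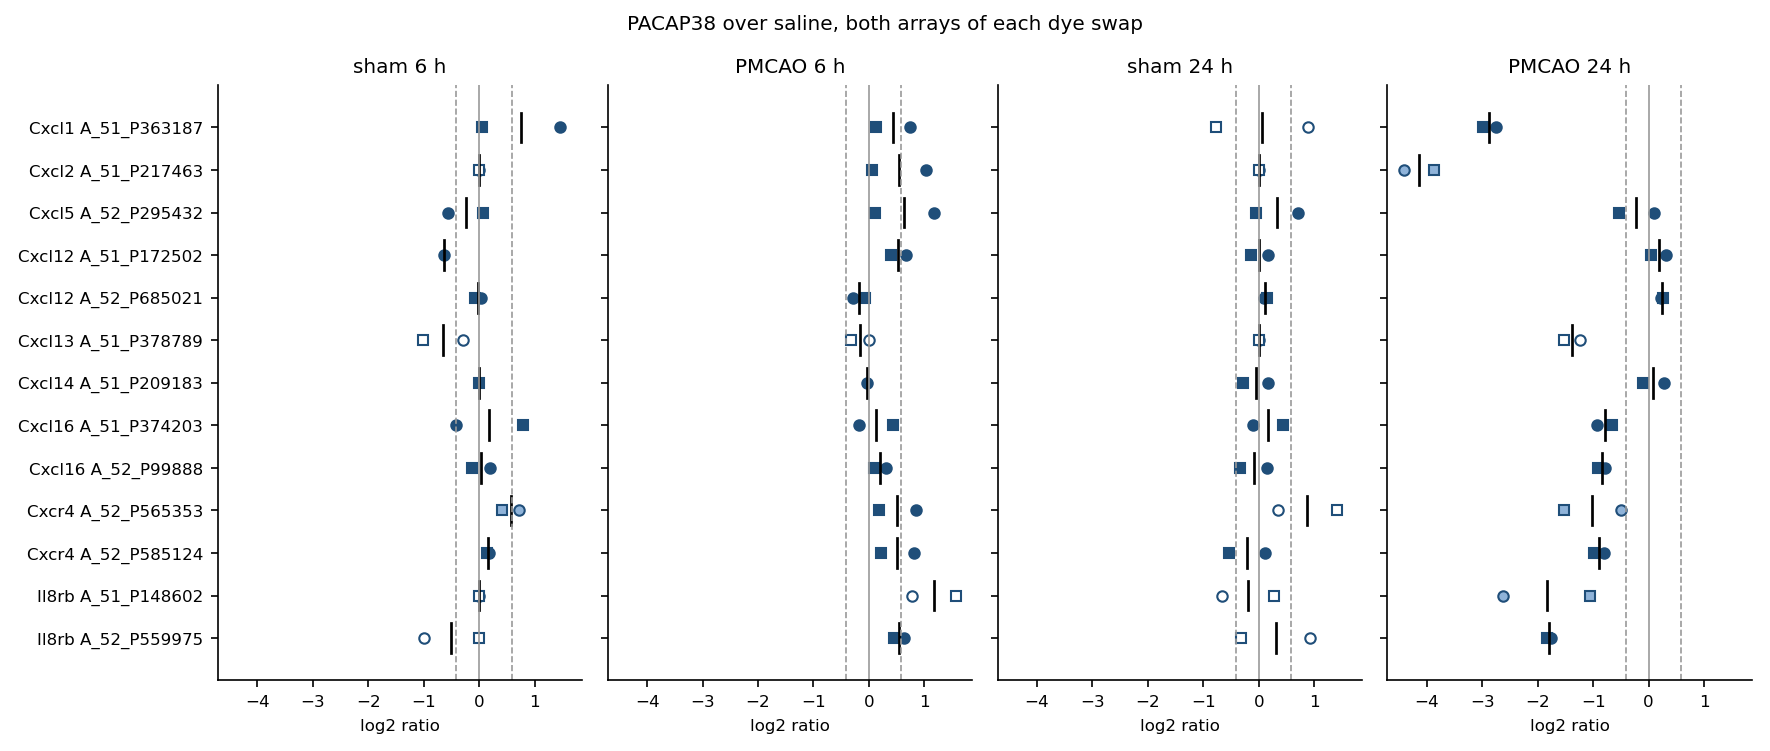
Log2 ratio of PACAP38 over saline for the 13 probes in each comparison. Circles show the array with PACAP38 in Cy5, squares the array with PACAP38 in Cy3, vertical bars their mean and dashed lines the thresholds; filled symbols had both pools well above background on at least 1 array, pale symbols 1 pool and open symbols neither. At PMCAO 24 h, 9 of 13 probes lie below the lower threshold on both arrays.

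Cxcl1, a major neutrophil attractant, gave signals of 986 and 1118 in the saline pool at PMCAO 24 h and of 145 and 139 in the PACAP38 pool. The log2 ratios of PACAP38 over saline were -2.76 and -2.99, a mean of 0.136-fold. The readings of the 2 pools did not overlap, and both readings of each pool lay close together. These are technical readings of 1 pool per group. At PMCAO 6 h the order was the other way round in both readings, with signals of 155 and 239 after saline and 261 and 260 after PACAP38. The 6 h ratio, 1.36-fold, passed neither threshold. In the sham pools Cxcl1 reached 10.7 to 29.5 at 6 h, and at 24 h it was not well above background in any channel, at 3.28 to 6.28. The sham 6 h ratio of 1.68-fold passed the threshold only because of 1 array, since its log2 values were 1.45 and 0.05.

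Cxcl2, another neutrophil attractant, was measured well above background in 4 of 16 channels. At PMCAO 24 h the saline pool gave 85.2 and 88.2, both well above background, and the PACAP38 pool gave 3.98 and 5.94, neither of which was. The saline pool was at least 2.23-fold above the PACAP38 pool. Such limits use background-corrected and loess- and quantile-normalised channels, which compress dim probes, and the measured log2 ratios were -4.41 and -3.87. At PMCAO 6 h the readings were 15.1 and 25.2 after saline and 30.9 and 25.8 after PACAP38, with 1 of 2 channels well above background in each pool. All 8 sham readings lay between 2.73 and 7.15 and none was well above background.

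Cxcl5, an ELR ligand of epithelial cells and platelets, differed little between the injections at 24 h. Its signals ranged from 18.1 to 73.0 across all 16 channels, and 15 of them were well above background. At PMCAO 24 h the saline pool gave 44.7 and 58.9 and the PACAP38 pool 47.4 and 39.9, which overlap. Its 6 h ratio after PMCAO, 1.56-fold, rested on a single array, with log2 values of 1.16 and 0.11.

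Il8rb, the receptor of these ligands and a gene of mature neutrophils, was read by 2 probes. The brighter probe, A_52_P559975, gave 102 and 92.7 in the saline pool at PMCAO 24 h and 29.9 and 25.6 in the PACAP38 pool. Its log2 ratios of -1.76 and -1.83 (0.288-fold) were nearly equal, and the technical readings of the 2 pools did not overlap. At PMCAO 6 h it gave 27.8 and 24.7 after saline and 43.5 and 33.2 after PACAP38, a ratio of 1.45-fold. In the sham pools it was not well above background, at 3.07 to 11.1. The dimmer probe, A_51_P148602, was well above background only in the saline pool at PMCAO 24 h, at 28.8 and 27.8, against 4.65 and 13.2 in the PACAP38 pool. The saline pool was at least 1.27-fold above the PACAP38 pool for that probe.

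Markers of neutrophils moved with these genes. Of 12 neutrophil genes on the array, 10 were below 0.75-fold and 0 above 1.5-fold for PACAP38 over saline at PMCAO 24 h. Over all probes 8.18% were below and 2.99% above these thresholds. The summed signal of the 12 genes was 50913 in the saline pool and 6550 in the PACAP38 pool, and in the sham pools it lay between 961 and 2310. At PMCAO 6 h it was 8657 after saline and 12615 after PACAP38, where 3 of the 12 genes were above 1.5-fold and 1 below 0.75-fold, with a median log2 ratio of 0.014. S100a9, an abundant cytoplasmic protein of neutrophils, made up most of the sums, with 44529 and 5218 at PMCAO 24 h. Ngp, a granule protein of immature neutrophils, gave 65.7 and 7.50, while Ela2, the neutrophil elastase, stayed between 3.07 and 5.39 in all pools. Camp and Ela2 were not well above background in any pool, so their ratios are not measured ones. Ngp and Ltf were not well above background in the PACAP38 pool at PMCAO 24 h. Other lists also held lower genes after PACAP38 at PMCAO 24 h. Of 6 endothelial genes 4 were lower, with sums of 27152 after saline and 19165 after PACAP38, and Cdh5, a junction protein of endothelium, gave 1692 and 648. Of 7 genes of meninges and vessel wall 3 were lower, with sums of 25412 and 17350, and of 8 microglia and macrophage genes 3 were, with sums of 10736 and 9219. The lists of oligodendrocytes and choroid plexus had 2 lower genes each and that of B cells 1, and those of T cells, neurons, astrocytes and cerebellum had 0. The pituitary list had 2 lower and 1 higher of 4, with Prl, prolactin, at 137 and 3.96. The part of any of these cells or tissues in the ratios of the members, Cxcl16 and Cxcr4 included, was not tested, and in bulk tissue fewer cells of a type and less RNA per cell cannot be told apart. Markers of the olfactory bulb also differed between the same 2 pools, although the study left the bulb out of its dissection. All 4 genes of that list were lower, with sums of 2222 after saline and 350 after PACAP38. The median log2 ratio of the bulb list was -2.68, against -1.44 for the neutrophil list. The part of the bulb was not tested either.

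**Figure D2:**
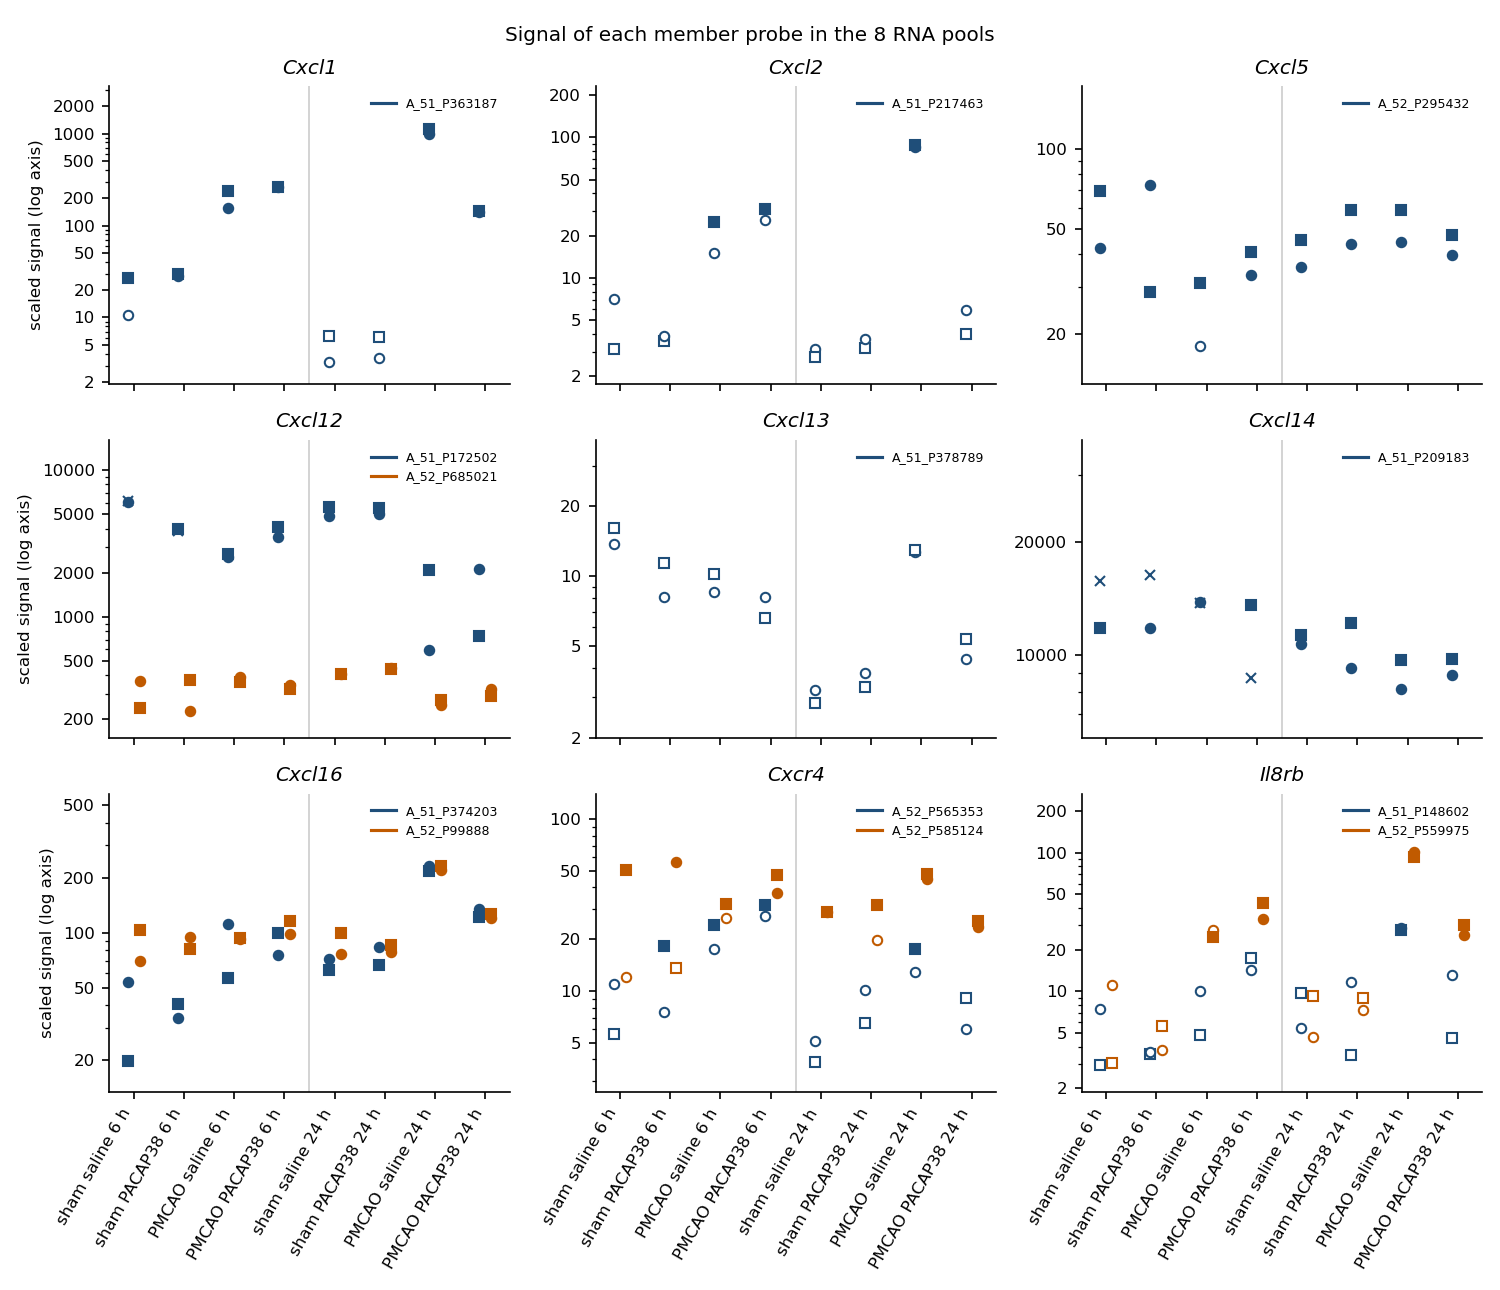
Scaled signal of each of the 13 probes on a log axis in the 8 RNA pools, 6 h on the left of the grey line and 24 h on the right. Circles are Cy3 and squares Cy5 readings, filled where well above background, crosses are spots flagged as outliers, and colours separate the probes of a gene. Cxcl1, Cxcl2 and Il8rb peak in the PMCAO saline pool at 24 h, and Cxcl12 A_51_P172502 has its lowest signals in the PMCAO pools at 24 h.

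Cxcl16, a membrane-bound ligand of macrophages and endothelium that binds Cxcr6, gave 232 and 216 with A_51_P374203 in the saline pool at PMCAO 24 h and 122 and 135 in the PACAP38 pool. The second probe, A_52_P99888, gave 219 and 231 against 127 and 121. Both probes were lower on both arrays, at 0.577-fold and 0.556-fold. In sham and 6 h tissue the PACAP38 over saline ratio of the 2 probes stayed between 0.938-fold and 1.15-fold.

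Cxcr4, the receptor of Cxcl12, also gave lower values after PACAP38 at PMCAO 24 h. Its brighter probe, A_52_P585124, gave 44.7 and 47.6 after saline and 25.4 and 23.7 after PACAP38, a ratio of 0.537-fold. The dimmer probe, A_52_P565353, gave 12.9 and 17.5 against 9.04 and 5.99, with 1 of 4 channels well above background, and the saline pool was at least 1.13-fold above the PACAP38 pool. The 2 sham 6 h arrays disagreed for A_52_P585124, with 12.0 and 13.6 on one array and 50.7 and 55.9 on the other. That difference between arrays was larger than the difference between the 2 pools of any array for this probe.

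Cxcl12, a constitutive chemokine of vessels and meninges, showed little difference between injections at 24 h. Its 2 probes are annotated to different transcripts, A_51_P172502 at chr6:117207552-117207611 and A_52_P685021 at chr6:117200799-117200858 (mm7, plus strand). Its probe A_51_P172502 gave signals between 595 and 6077 in unflagged spots. At PMCAO 24 h its ratio was 1.13-fold and that of A_52_P685021 was 1.18-fold. At sham 6 h, A_51_P172502 gave 0.649-fold from the single array that was not flagged, with signals of 6077 after saline and 3962 after PACAP38. At PMCAO 6 h the same probe gave 2545 and 2690 after saline and 4074 and 3508 after PACAP38, a ratio of 1.45-fold, within the thresholds.

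Cxcl14, an abundant brain ligand without an agreed receptor, gave pool signals between 8885 and 13797. Its ratio of PACAP38 over saline stayed between 0.962-fold and 1.06-fold in all 4 comparisons, from 1 unflagged array in each 6 h comparison. Cxcl13, a B cell attractant, was not well above background in any of 16 channels, at 2.83 to 16.2, so no ratio of it is a measured one. Its counts among the 9 lower probes at PMCAO 24 h came from such values.

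In sham tissue the thresholds were passed by few probes. At sham 6 h, 1 probe was higher and 3 lower, where 3.65% and 7.19% of all probes were, and 0 passed on both arrays, where 0.79% and 1.04% did. At sham 24 h, 1 was higher and 0 lower, where 1.75% and 3.87% of all probes were. That probe, Cxcr4 A_52_P565353, was not well above background in either sham pool at 24 h. Across the 4 comparisons together, limma found 0 of 40668 probes with a common PACAP38 effect at an adjusted p below 0.05. The smallest adjusted p was 0.872. At an unadjusted p below 0.05 it found 2037 probes (5.01%), of which 0 were members. That test measures an effect shared by both surgeries and times, not one at PMCAO 24 h alone.

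PMCAO itself was compared with sham within 1 injection and time, using channels of the same dye. In saline-injected mice at 24 h, 9 of 13 probes were higher, 8 of them with a pool well above background, and 2 lower, where 9.56% and 13.3% of all probes were. In PACAP38-injected mice at 24 h, 4 were higher and 2 lower, where 6.39% and 8.19% of all probes were. At 6 h, 12 probes had a value. In saline-injected mice 5 were higher and 3 lower, where 29.5% and 20.8% of all probes were. In PACAP38-injected mice 7 were higher and 0 lower, where 29.1% and 15.9% of all probes were. The 6 h counts must be read against medians over all probes of 0.20 and 0.25 on the log2 scale, since this scaling left the 6 h arrays off centre. The 24 h medians over all probes were 0.02 and 0.03. The saline and PACAP38 comparisons were read from the same arrays, and their values are given side by side.

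**Figure D3:**
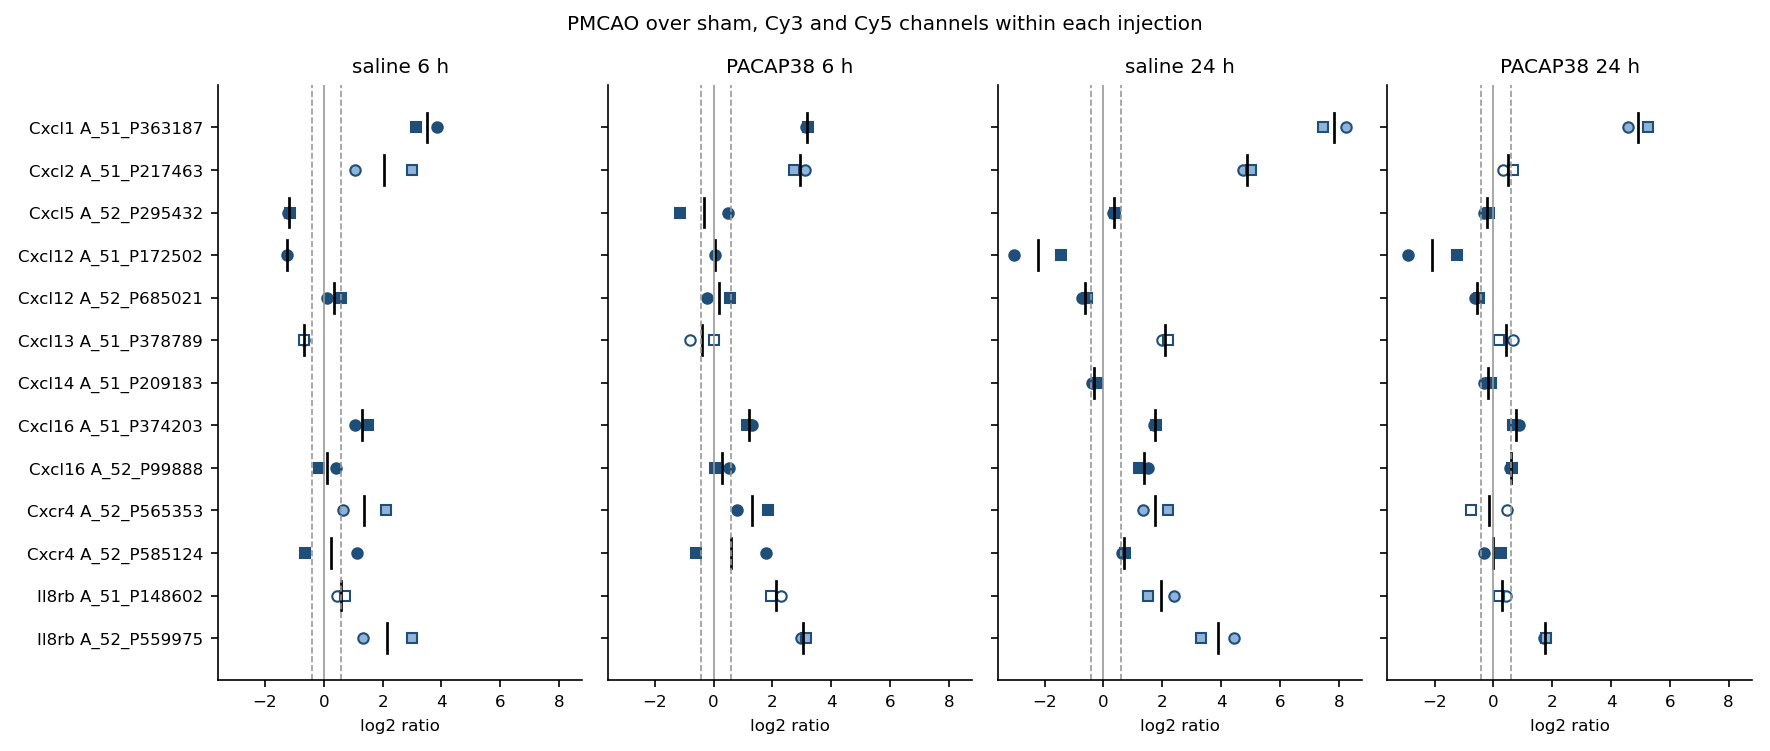
Log2 ratio of PMCAO over sham for the 13 probes in saline- and PACAP38-injected mice at 6 h and 24 h. Circles and squares are the 2 arrays of each pool, vertical bars their mean, dashed lines the thresholds, and symbols are filled as for PACAP38 over saline. Cxcl1 has means of 3.50 and 3.18 at 6 h after saline and PACAP38, and its pale 24 h symbols stand over sham pools not well above background, for which the text gives only lower bounds.

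Cxcl1 was higher after PMCAO in every comparison. The mean log2 ratios were 3.50 after saline and 3.18 after PACAP38 at 6 h. At 24 h sham tissue was not well above background, and PMCAO tissue was at least 10.8-fold higher after saline and at least 1.99-fold higher after PACAP38. Cxcl2 was at least 1.21-fold higher after saline and 1.23-fold after PACAP38 at 6 h. At 24 h it was at least 2.03-fold higher after saline, and after PACAP38 both pools were below background. Il8rb A_52_P559975 was at least 1.15-fold and 1.23-fold higher at 6 h, and at least 1.94-fold and 1.06-fold at 24 h, after saline and PACAP38 respectively.

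Cxcl16 A_51_P374203 was 2.43-fold and 2.32-fold higher at 6 h and 3.35-fold and 1.71-fold at 24 h after saline and PACAP38. Its second probe was higher at 24 h only, at 2.58-fold and 1.51-fold. Cxcr4 A_52_P585124 was 1.60-fold higher after saline at 24 h and 0.986-fold after PACAP38. At 6 h its 2 arrays went opposite ways, with log2 ratios of 1.14 and -0.66 after saline.

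Cxcl12 was the only member that was lower after PMCAO at 24 h. A_51_P172502 gave 0.213-fold after saline and 0.237-fold after PACAP38 at 24 h. The 2 PMCAO arrays differed, since array 1 gave 595 and 738 and array 2 gave 2075 and 2111, while sham readings lay between 4890 and 5590. All PMCAO readings were below all sham readings, but the size of the difference depends on the array. A_52_P685021 gave 0.640-fold and 0.687-fold, with PMCAO readings between 250 and 320 and sham readings between 405 and 446, which did not overlap. Cxcl5 was lower at 6 h after saline only, at 0.441-fold, and Cxcl14 stayed between 0.806-fold and 0.877-fold at 24 h.

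Over the 4 pairs of pools limma tested 12 member probes, without Cxcl14. It called 4 higher and 1 lower at an adjusted p below 0.05 for the mean of both times. Of 40508 probes 26.6% and 12.8% were called, so both member counts are near the share over all probes. The 4 higher probes were Cxcl1 with a mean log2 difference of 4.86 ± 0.50 (SE, adjusted p = 0.00848), Il8rb A_52_P559975 with 2.71 ± 0.39 (adjusted p = 0.0123), and both Cxcl16 probes. Cxcl16 A_51_P374203 gave 1.25 ± 0.18 (adjusted p = 0.0120) and A_52_P99888 0.59 ± 0.15 (adjusted p = 0.0389). Cxcl12 A_51_P172502 gave -1.38 ± 0.23 (adjusted p = 0.0158). At 6 h that probe had 1 unflagged array per injection, with PMCAO over sham at 0.419-fold after saline and 1.03-fold after PACAP38. The other Cxcl12 probe, A_52_P685021, was not called for the mean, at -0.16 ± 0.08 (limma, adjusted p = 0.151). The sham pools of Il8rb A_52_P559975 were not well above background at either time, nor were those of Cxcl1 at 24 h, so the sizes of both differences rest on signals at background, and only the lower bounds above hold for them. The saline and PACAP38 pairs of a time share arrays, so these p-values are too small. With channels of 1 dye chosen so that no array was used for both injections, an alternative chosen after seeing the data, 0 of 36121 probes were called in any contrast. The smallest adjusted p for the mean was then 0.269 in Cy3 and 0.50 in Cy5. At an unadjusted p below 0.05, 6 member probes passed in each dye, in either direction, where 15.7% of all probes did in Cy3 and 8.28% in Cy5. Without a time term 0 of 40508 probes were called, with a smallest adjusted p of 0.0644, and 9075 (22.4%), 8 of them members, passed at an unadjusted p below 0.05.

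The other CXC genes of the array, 13 genes on 15 probes, included 7 probes that were lower after PACAP38 at PMCAO 24 h and 0 higher. Over all probes 8.18% were lower and 2.99% higher. On both arrays 5 of the 15 were lower, where 3.75% of all probes were. Cxcl3 (Gm1960), a further ELR neutrophil attractant, gave 233 and 274 in the saline pool and 24.0 and 22.1 in the PACAP38 pool, 0.0921-fold. Cxcl7, the platelet precursor of a neutrophil attractant, gave 429 and 406 against 46.6 and 51.5, 0.119-fold. Cxcl4, platelet factor 4, gave 1651 and 1906 against 607 and 511, 0.317-fold. Cmkor1, the atypical receptor of Cxcl12 now called Ackr3, gave 2000 and 2366 against 1126 and 1147, 0.528-fold. Blr1, now Cxcr5 and the receptor of Cxcl13, was at least 1.18-fold lower, with 1 of 4 channels well above background. The other lower probes were Cxcl10 and Cxcl11, the latter not well above background and with log2 values of 0.22 and -1.39.

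Cxcl10, an interferon-induced ligand of Cxcr3, differed from these. At PMCAO 24 h it gave 1434 and 1810 after saline and 1231 and 1050 after PACAP38, 0.712-fold, with only 1 array past the threshold. At sham 24 h it gave 121 and 203 after saline and 85.2 and 58.4 after PACAP38, 0.449-fold on 2 arrays. Its PMCAO over sham ratio at 24 h was 10.3-fold after saline and 16.1-fold after PACAP38. Both Darc probes, read from a scavenging receptor of venules, passed no threshold between injections. Cxcl9, Cxcl11, Cxcl15 and Il8ra were not well above background in any channel.

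**Figure D4:**
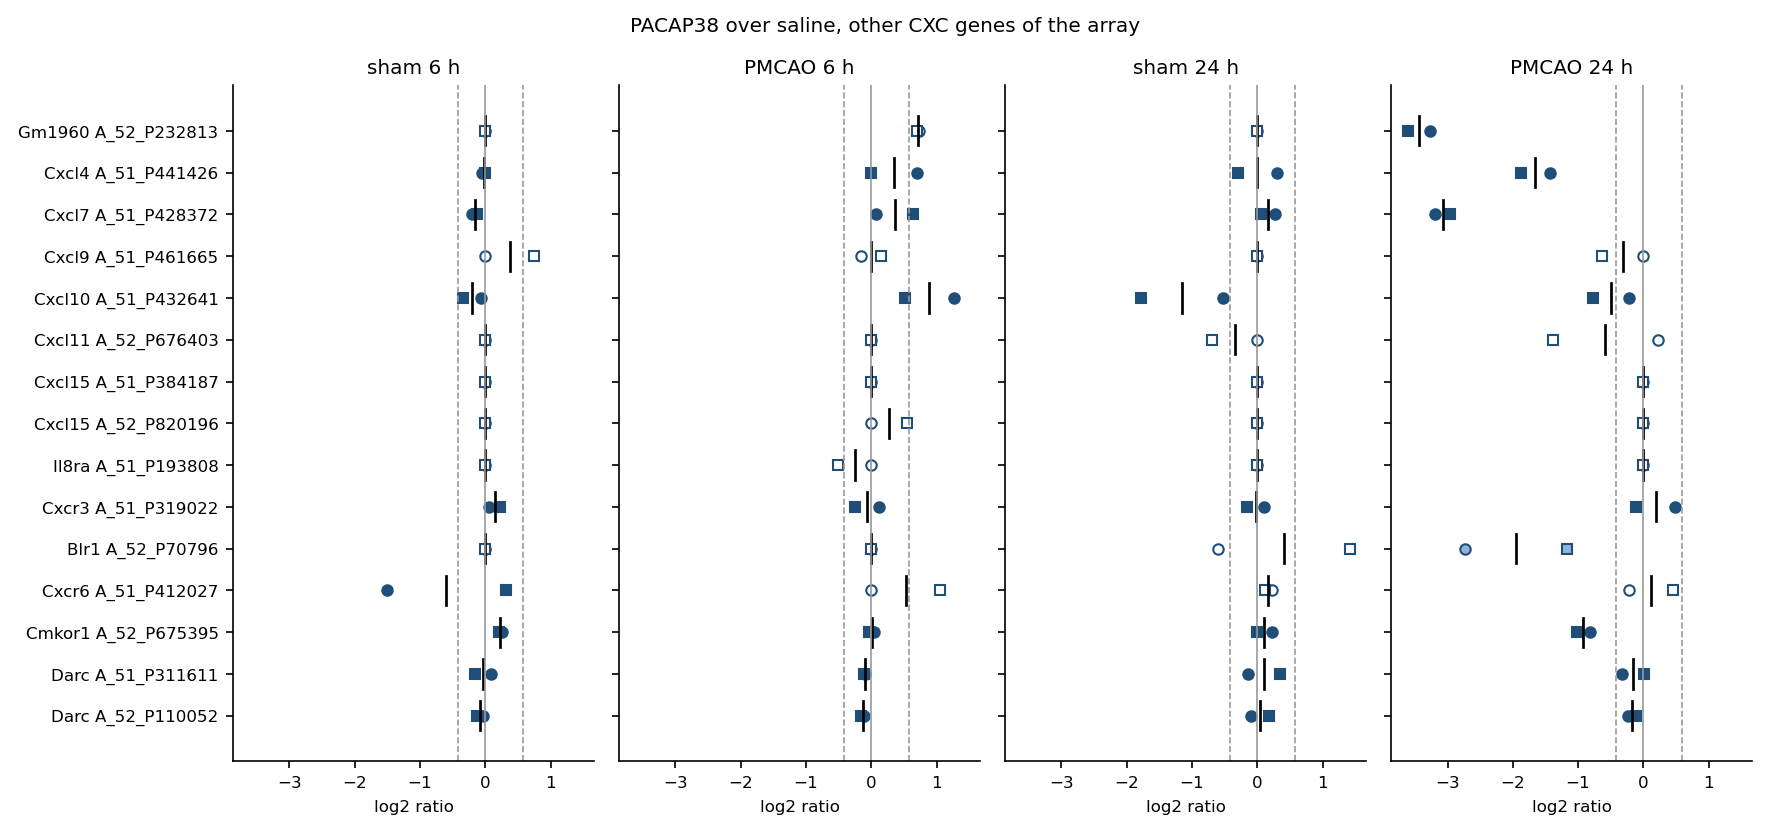
Log2 ratio of PACAP38 over saline for the 15 probes of the other CXC genes, drawn as for the members. Cxcl3 (Gm1960), Cxcl7, Cxcl4 and Cmkor1 lie below the lower threshold on both arrays at PMCAO 24 h, and Cxcl10 does so at sham 24 h.

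Over the 8 pools, the log2 level of Cxcl2 correlated with that of Cxcl1 at r = 0.89 and with that of Il8rb at 0.90, and that of Cxcl5 with Cxcl2 at -0.23. The pools share slides and arrays, so these values describe them and carry no test. Cxcl2 was well above background in 4 of 16 channels and Il8rb A_52_P559975 in 7, so every r of these 2 rests partly on readings at background. Among 25984 probes well above background in at least 4 pools, the 5 genes most like Cxcl2 were St3gal1, Zc3h7a, Akap12, 2010005H15Rik and Tpm4, with r between 0.973 and 0.989. Those most like Il8rb were Cttnbp2nl, 1810033B17Rik, Tnfaip2, Plek and Plac8, between 0.988 and 0.990. Those most like Cxcl12 were Fgfr2, Fuz, Pdk3, Sh3kbp1 and Zfp106, between 0.975 and 0.989. For Cxcl13, which was at background, the same rule gave Thbs4, Sh3bgrl3, Polh, BC005537 and 2700085E05Rik, between 0.947 and 0.986.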

How the data were processed

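The 8 two-colour Agilent arrays were scanned by the authors and read with Feature Extraction, version 9.5.1.1 for 6 h and 9.5.3.1 for 24 h per the file headers, and 9.5.3.1 throughout per the labels. The deposited scanner values used here were processed signal intensity and the log10 ratio of Cy5 over Cy3. The deposited table holds the ratio of Cy5 over Cy3 where PACAP38 was in Cy5 and, as a score below 0, the same ratio with a minus sign where it was in Cy3. The size of the ratio differed from that of the processed signals by at most 0.005 (relative to ratios above 1). Each labelling used 900 ng of RNA, 300 ng from each of 3 mice. The log10 ratio was turned to log2 PACAP38 over saline and averaged over the dye swap. PMCAO over sham used log2 processed signal of same-dye channels minus the 75th percentile. Control and outlier spots were left out. Probe positions on the array are given for mm7. The labels number the 2 arrays of a comparison as pools, whereas the methods describe a dye swap of the same pooled RNA, so they were taken as technical, and only limma 3.58.1 (R 4.3.3) over 4 pairs of pools gave p-values, with Benjamini-Hochberg adjustment over all probes, with 2 residual degrees of freedom for surgery and 3 for PACAP38, and these were tested on simulated data. The simulated errors were independent between pairs, so that check cannot show how far shared arrays lower the p-values for surgery. The number of arrays limits the precision. Limits against background used normexp (offset 50), loess and Aquantile. The named genes were the members, a list of other CXC genes, and the 5 genes most like Cxcl2, Il8rb, Cxcl12 and Cxcl13 over the pools. Of the marker lists of 13 cell types or tissues, 12 had every gene on the array well above background in at least 1 channel, those of neurons (6 genes), astrocytes (4) and oligodendrocytes (4) included, and neutrophils had 10 of 12. The members, lists and tests were chosen with earlier results of these data known. Alternatives were another background correction, another centring, a filter on dim probes, other call rules and leaving out arrays or pools.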

Additional observations from a re-analysis of the deposited data

Results flagged for a closer look

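Between 6 h and 24 h after PMCAO, 6 probes with at least 1 pool well above background at each time turned in sign. Their PACAP38 over saline log2 ratios were above 0 on both 6 h arrays and below 0 on both 24 h arrays. Their means passed the lower threshold at 24 h and no threshold at 6 h. The difference was not tested, since each time had 1 pool per group and its own slide. The share of all probes that met this rule was not counted, so the 6 have no background to be read against. Across all probes the 2 arrays at PMCAO 6 h correlated at only -0.14. The mean log2 ratios at 6 h and 24 h were 0.44 and -2.87 for Cxcl1, 0.54 and -4.14 for Cxcl2, and 0.54 and -1.80 for Il8rb A_52_P559975. They were 0.51 and -1.02 for Cxcr4 A_52_P565353, 0.51 and -0.90 for Cxcr4 A_52_P585124, and 0.20 and -0.85 for Cxcl16 A_52_P99888. For Cxcl2 and Cxcr4 A_52_P565353 the PACAP38 pool was not well above background at 24 h, so only the lower bounds of 2.23-fold and 1.13-fold hold there. Il8rb A_51_P148602 turned in the same way, with 1.17 and -1.84, but neither pool was well above background at 6 h.

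For PMCAO over sham in saline-injected mice, 2 probes with at least 1 pool well above background at each time likewise turned between 6 h and 24 h. Cxcl5 had mean log2 ratios of -1.18 and 0.34 (not tested). Cxcl12 A_52_P685021 had 0.35 and -0.64, and its 24 h minus 6 h difference over both injections was -0.86 (limma, adjusted p = 0.0257). That p is too small because the injections share arrays, and with no shared array 0 probes were called. In the fit with shared arrays, 17.7% of 40508 probes were called lower for 24 h minus 6 h, with a median of -0.19. At 6 h after saline the median over all probes was 0.20, and the 2 arrays of A_52_P685021 gave 0.10 and 0.59. The part of the off-centre 6 h scaling in the values of this probe was not tested. Cxcl13 turned from -0.68 to 2.09 on values not well above background in any channel.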

How the results depend on the processing

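No paired analysis was possible because the replicate numbers shared by the groups mark the dye orientation of arrays of the same RNA, not separate animals. The number of arrays and signal over background limit these results: 2 arrays read 1 pool per group, and dim probes have only bounds. The cause of the shifts below was not tested, apart from those that follow from fewer arrays or probes. Counts under the alternatives are given without the share of all probes, so they show only how the member calls shift.

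For PACAP38 over saline, normexp and loess left 0 member probes higher and 1 lower at sham 6 h, 0 higher at PMCAO 6 h, 0 higher at sham 24 h and 5 lower at PMCAO 24 h. When dim probes were left out, 1 was lower at sham 6 h, 1 higher at PMCAO 6 h and 0 higher at sham 24 h. When both arrays had to pass, 0 were higher and 0 lower at sham 6 h, 1 higher at PMCAO 6 h and 0 higher at sham 24 h. Without either array, 1 to 2 were higher and 1 to 3 lower at sham 6 h, 1 to 8 higher at PMCAO 6 h, and 1 to 3 higher and 1 to 2 lower at sham 24 h, where both arrays together gave 1 and 0. At PMCAO 24 h, 9 to 10 were lower. The fit over pools called 0 members under each alternative.

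For PMCAO over sham, normexp, loess and Aquantile left 1 higher and 1 lower after saline at 6 h, 1 higher after PACAP38 at 6 h, 5 higher after saline at 24 h and 1 higher after PACAP38 at 24 h. With the filter on background, 2 were higher after saline and 4 after PACAP38 at 6 h. Median centring gave 2 lower after PACAP38 at 6 h, and a 1.5-fold rule either way gave 1 lower after PACAP38 at 24 h. Without either array, 1 to 2 were lower after PACAP38 at 6 h. Cxcr4 A_52_P585124 after PACAP38 at 6 h turned to -0.036 with normexp, loess and Aquantile, and ran from -0.60 to 1.79 without either array.

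In the fit over pairs of pools with shared arrays, the members called at 6 h were Cxcl1, Cxcl16 A_51_P374203 and Il8rb A_52_P559975, all higher. Over all probes 33.7% were called higher and 14.9% lower. At 24 h only Cxcl1 was called, higher, where 1.44% of all probes were and 0.622% were lower. For 24 h minus 6 h only Cxcl12 A_52_P685021 was called, lower, where 17.7% of all probes were and 8.03% were higher. Cy3 or Cy5 alone with no shared array called 0 members in each contrast. Without the time term the mean gave 0 higher and 0 lower. With normexp, loess and Aquantile the mean gave 2 higher and 2 lower, 6 h gave 0 higher and 1 lower, 24 h gave 0 higher and 2 lower, and 24 h minus 6 h gave 1 higher. Median centring gave 2 lower for the mean and 1 lower at 6 h. Leaving out 1 pair of pools or 1 array of each gave 0 to 9 higher and 0 to 1 lower for the mean, 0 to 6 higher and 0 to 2 lower at 6 h, 0 to 7 higher and 0 to 1 lower at 24 h, and 0 to 4 higher and 0 to 2 lower for 24 h minus 6 h. The counts of 9 and 7 came without the PACAP38 pair at 24 h, and 0 for the mean without replicate 2. A pair left alone at its time was assumed to vary like the other time. Over the same settings Cxcr4 A_52_P585124 ran from -0.63 (without replicate 1) to 1.47 at 6 h and from -1.31 to 1.13 for 24 h minus 6 h, and Cxcl2 ran from -1.99 (without the saline pair at 24 h) to 2.40 for 24 h minus 6 h.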
